A study of Mus musculus with 3 samples.

Results

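The cells described here are keratinocytes of mouse back skin in which transcripts of both Sostdc1 and Fst were counted, out of 3 single-cell RNA-seq libraries. A cell was taken where it had at least 500 genes, under 15% mitochondrial counts, at least 0.3% of its counts in Krt5, Krt14 and Krt15 together, no count of Ptprc or Col1a1, and at least 2 unique molecular identifiers (UMIs, 1 per captured transcript) of each of the 2 genes. Cells with 3 or more of the 6 bulge genes Krt24, Postn, Lgr5, Cd34, Dkk3 and Sfrp1, or with 4 or more of the 6 upper follicle genes Gata6, Tm4sf1, Igf2bp2, Adgrl2, Lrig1 and Pdk4, were left out. This gave 622 cells in the 2-week knockout, 618 in the 3-week knockout and 261 in the control, 1501 of 27951 barcodes in all. They made up 8.09% (7.49 to 8.72) of 7689 keratinocytes in the 2-week knockout, 10.4% (9.61 to 11.2) of 5958 in the 3-week knockout and 10.1% (8.96 to 11.3) of 2586 in the control. The levels of the genes in this rule chose the cells, so they are given as descriptions.

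Sostdc1 encodes a secreted protein, also called ectodin or Wise, that binds bone morphogenetic proteins (BMPs) and modulates Wnt signalling through LRP receptors. Fst encodes follistatin, a secreted protein that binds and neutralises activins and also some BMPs. In the hair follicle, BMP signalling keeps stem cells quiet and Wnt signalling accompanies their activation, so secreted antagonists of these ligands are studied there as local controls. In the reference annotation (GRCm38) Sostdc1 lies on chromosome 12 from 36314139 to 36318452, plus strand, and Fst on chromosome 13 from 114452290 to 114458951, minus strand.

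The 2-week knockout was K5-Cre-er/Piezo1fl/fl/Tdfl/+, taken on postnatal day 62. The 3-week knockout was K5-Cre-er/Piezo1fl/fl/Tdfl/fl, taken on day 71. The control was K5-Cre-er/Piezo1fl/+/Tdfl/+, taken on day 62, so it carried the driver and 1 floxed Piezo1 allele. All 3 were C57BL/6 mice given tamoxifen from day 48 to day 52, which activates a Cre recombinase driven by the keratin 5 promoter, active in basal keratinocytes. There was 1 library per group, the number of animals behind each is not given in the sources used here, and the 3-week knockout also differed from the control in age and in its Td alleles. No comparison below has a replicate or a test. Intervals are 95% intervals that cover counting error only, and a difference between libraries cannot be told apart from a difference between the animals.

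The selected cells had a median of 8407.5 UMIs in the 2-week knockout, 10497.5 in the 3-week knockout and 10936 in the control. Depth bears on a rule that asks for 2 UMIs. As an alternative, cells were thinned to 5000 UMIs. Shallower cells (2292, 2644 and 964 of those within the limits on genes and mitochondrial counts) were left out. The shares were then 7.06% of 6561 keratinocytes in the 2-week knockout, 9.60% of 5322 in the 3-week knockout and 8.78% of 2586 in the control. Few cells of a type that should lack the genes met both thresholds. Among immune cells (at least 2 UMIs of Ptprc, under 0.3% keratin counts and no Col1a1), 2 of 119 in the 2-week knockout, 3 of 441 in the 3-week knockout and 0 of 310 in the control had 2 UMIs of both genes. The 0 allows a share of up to 0.968% by a bound of 3 counts, and of up to 1.18% by the exact interval. Median depths of these immune cells were 3864, 4632 and 5687 UMIs. Sostdc1 was seen in 52.9%, 47.4% and 48.1% of all keratinocytes against 3.36%, 3.40% and 0.645% of immune cells, in the same order of libraries. Fst was seen in 62.7%, 49.0% and 68.6% of keratinocytes against 6.72%, 5.90% and 10.3% of immune cells. The libraries shared 17 to 29 cell barcodes pairwise, of which at most 2 belonged to a selected cell. A doublet caller marked 12, 24 and 5 of the selected cells in the 2-week knockout, the 3-week knockout and the control.

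Within the selected cells Sostdc1 was highest in the 3-week knockout and differed less between libraries than Fst, which was highest in the control. Counts of a gene summed over the selected cells of a library are given as counts per 1000000 UMIs (CPM). Sostdc1 stood at 538 CPM in the 2-week knockout, 643 CPM in the 3-week knockout and 496 CPM in the control. Fst stood at 2143 CPM in the 2-week knockout, 1508 CPM in the 3-week knockout and 3614 CPM in the control. The median cell held 12 Fst UMIs in the 2-week knockout, 12 in the 3-week knockout and 27 in the control. Fst was also lower in the knockouts in the other keratinocytes, at 853, 368 and 1374 CPM in the 2-week knockout, the 3-week knockout and the control. The share of the selected cells with exactly 2 Fst UMIs, at the edge of the rule, was 8.84%, 9.55% and 6.90% in the same order. For Sostdc1 this share was larger, at 28.9%, 16.7% and 20.3%, so the rule bears more on its levels. The per-cell distributions overlapped widely between libraries for both genes.

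**Figure D1:**
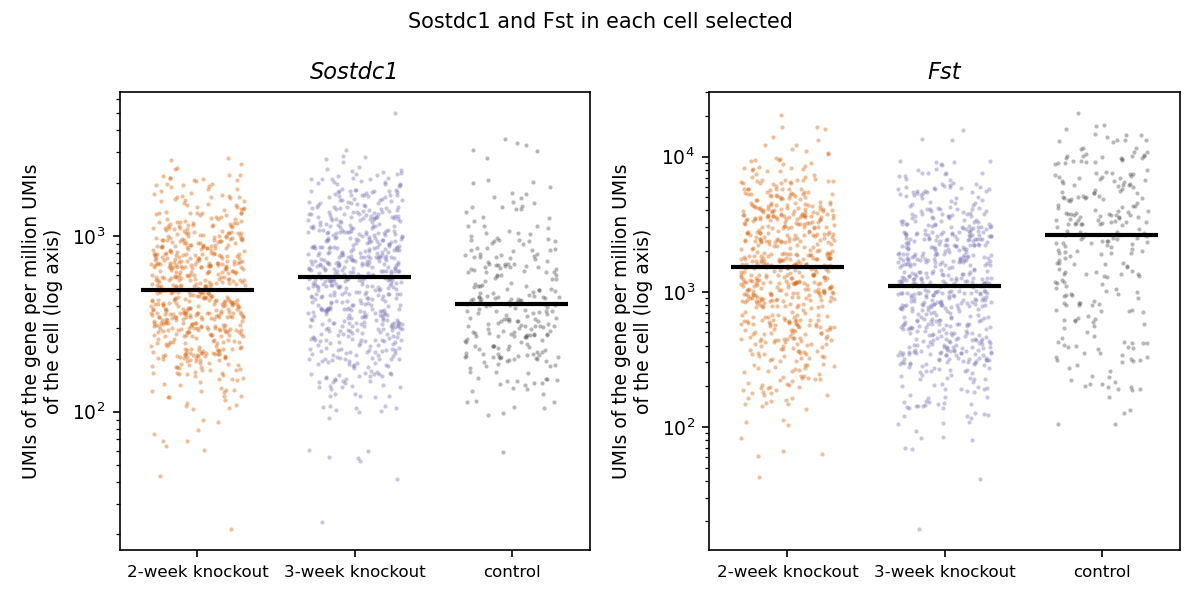
UMIs of Sostdc1 (left) and Fst (right) scaled to CPM of the cell, on log axes, for each selected cell of the 2-week knockout (622 points), the 3-week knockout (618) and the control (261), with the median as a black line. The Fst medians lie at 1514 in the 2-week knockout, 1113 in the 3-week knockout and 2618 in the control, and those of Sostdc1 at 492, 588 and 409.

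The label calls these cells follicle keratinocytes. Their keratins marked them as keratinocytes by the rule, and genes outside the rule were mixed. Sox9, a transcription factor of the follicle's outer root sheath and stem cells, stood at 766, 478 and 693 CPM in the selected cells of the 2-week knockout, the 3-week knockout and the control, against 548, 235 and 437 CPM in their other keratinocytes. Krt17, a keratin of follicle and stressed epidermis, was also higher than in the other keratinocytes in all 3 libraries (1877, 1492 and 1481 CPM against 1026, 1197 and 1099 CPM). Lhx2, a transcription factor of bulge stem cells, was lower (36.2, 8.29 and 9.95 CPM against 125, 51.9 and 48.1 CPM). Krt75, of the companion layer, stood at under 1 CPM and Shh, of the activated hair germ, at 0 in the selected cells of every library. Listed markers outside the rule were counted at 1.5-fold in all 3 libraries, which 1.04% of all genes compared passed upwards and 1.45% downwards. Of 5 outer bulge markers compared 0 were higher and 1 lower, and of 4 upper follicle markers 0 were higher and 2 lower. The other keratinocytes include the double-positive cells that the rule removed for their bulge or upper follicle genes. Lower levels of such markers, Lhx2 among them, therefore cannot be told apart from an effect of the rule. Of 5 inner bulge or companion markers 1 was higher, as was 1 of 3 hair germ markers, with 0 lower. Markers of other lineages were counted too: the 9 fibroblast markers outside the rule summed to 51.7, 98.7 and 95.5 CPM in the selected cells and to 222, 187 and 176 CPM in the other keratinocytes, and the 9 immune markers to 30.1, 27.6 and 36.1 CPM in the selected cells against 19.9, 41.4 and 25.8 CPM. The 8 Schwann cell markers summed to 166, 202 and 187 CPM in the selected cells and to 228, 293 and 269 CPM in the other keratinocytes, with Sox10 at 0 in the selected cells of the 2-week knockout and the control.

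The selected cells did not form 1 cell state. All keratinocytes were clustered without the genes of the rule, and 2 of 17 clusters held most of the selected cells. Cluster 2, led by Igf2bp2, Tm4sf1, Ifi202b and Pdk4, held 517 of them, and cluster 6, led by Cxcl10, Gata6, Ccl2 and Defb6, held 397. In cluster 2 they were 27.6% of the cells and in cluster 6 they were 39.0%, so most cells of both clusters did not meet the rule. The rest fell mainly in a cycling cluster led by histone genes, Mki67 and Top2a (116 cells), a cluster led by Defb6, Cst6 and Krt79 (105), one led by Epgn and Ifi202b (93), one led by Aspn, Pthlh and Bdnf (90), one led by Krt1, Mt4 and Krt10 (50) and one led by Ndufa4l2 and Il1r2 (48). Several leading genes of clusters 2 and 6 are the upper follicle genes that the rule limits and does not exclude. The cells are therefore called by their 2 selecting genes.

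**Figure D2:**
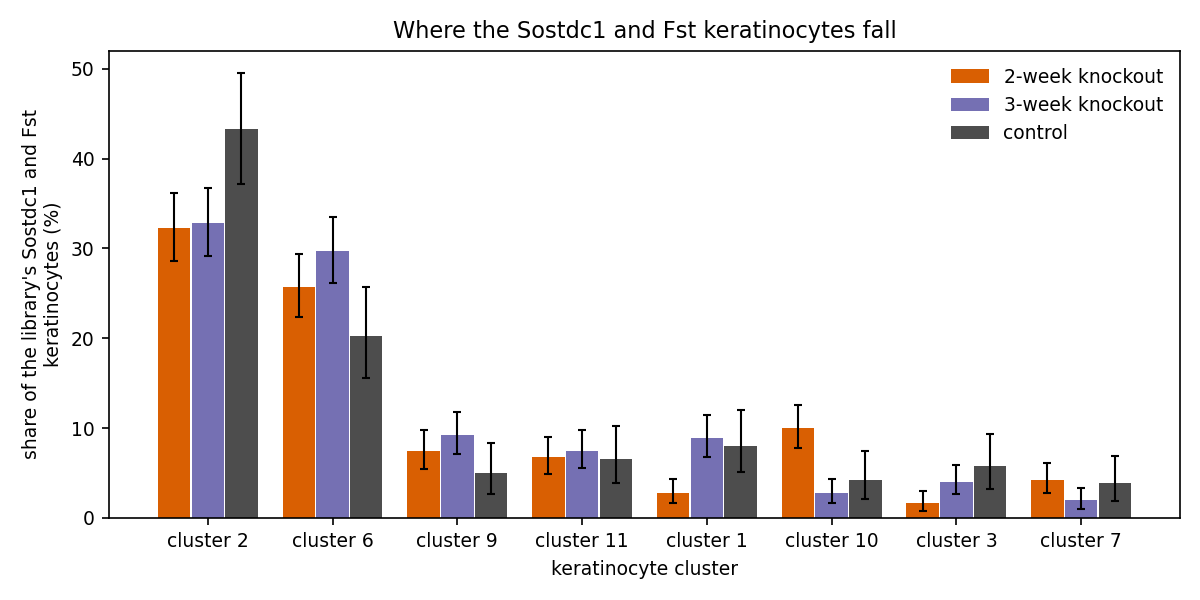
Share of each library's selected cells (percent, bars, with exact 95% intervals for counting error) in the 8 keratinocyte clusters that held at least 10 of them in every library, for the 2-week knockout, the 3-week knockout and the control. Clusters 2 and 6 hold the largest shares in each library; cluster 10, led by Aspn, holds 9.97% in the 2-week knockout, against 2.75% in the 3-week knockout.

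Clusters 2 and 6 carried the 2 selecting genes at different levels, although neither gene was used for clustering. Fst was higher in the selected cells of cluster 2, at 3248, 2687 and 5827 CPM in the 2-week knockout, the 3-week knockout and the control, against 1765, 1342 and 2108 CPM in cluster 6. Sostdc1 was higher in cluster 6, at 870, 991 and 883 CPM, against 482, 677 and 441 CPM in cluster 2. Id1, a target of BMP signalling, was also higher in cluster 6 in all 3 libraries, at 944, 445 and 324 CPM, against 144, 122 and 55.6 CPM in cluster 2. The shares of selected cells in cluster 2 were 32.3%, 32.8% and 43.3% and those in cluster 6 were 25.7%, 29.8% and 20.3% in the 2-week knockout, the 3-week knockout and the control. The mix thus differed between libraries, and values within each cluster are given below where they change a result.

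Against the other keratinocytes, the selected cells stood out by few genes. Of 2685 genes outside the rule with at least 50 UMIs and 50 CPM, 6 (0.223%) exceeded the other keratinocytes 2-fold or more in all 3 libraries, and 17 (0.633%) fell short of them 2-fold or more. The cells were chosen in the same data, so these values describe the selection. The highest was Aldh3a1, an aldehyde dehydrogenase of barrier epithelia. It stood at 170, 177 and 176 CPM in the selected cells of the 2-week knockout, the 3-week knockout and the control, against 44.5, 53.1 and 61.03 CPM in the other keratinocytes, ratios of 3.81 (3.55 to 4.09), 3.33 (3.13 to 3.55) and 2.89 (2.63 to 3.17). Aldh3a1 was thus nearly level between libraries and higher in the selected cells in each.

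Itih5, which encodes a protein that binds hyaluronan in the matrix, stood at 92.9, 81.2 and 93.3 CPM in the selected cells, against 26.1, 27.9 and 24.9 CPM. Ntrk2, the receptor of brain-derived neurotrophic factor, stood at 65.0, 76.2 and 83.7 CPM, against 18.2, 30.1 and 26.5 CPM. Timp3, an inhibitor of matrix metalloproteinases, stood at 197, 223 and 327 CPM, against 85.9, 108 and 150 CPM. These 3 genes were higher in the selected cells in every library. Rassf9, a member of the RASSF family with an epidermal role in mice, and Lgals9, a galectin, completed the 6. Rassf9 stood at 124, 112 and 271 CPM in the selected cells of the 2-week knockout, the 3-week knockout and the control, so its level was highest in the control. The retinol-oxidising dehydrogenase Adh7, the chemokines Ccl27a and Cxcl10, the polo-like kinase Plk2 and Odc1, of polyamine synthesis, followed, below 2-fold in the library where each ratio was lowest. Cachd1, Egln3, Pthlh and Trbc2 were the others of the 15 highest. Trbc2 is a T cell receptor constant gene, and the source of its counts in these cells was not tested. Ccl27a shares its symbol with other gene identifiers of the feature table, and the 3' end of Odc1 matches transcripts of 14 other genes, so these 2 values are uncertain.

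The genes lowest in the selected cells included genes known from bulge cells and from the matrix. S100a4, a calcium-binding protein, stood at 68.3, 30.1 and 39.2 CPM in the selected cells of the 2-week knockout, the 3-week knockout and the control, against 654, 176 and 284 CPM in the other keratinocytes. Igfbp3, which binds insulin-like growth factors, stood at 139, 134 and 110 CPM, against 569, 546 and 735 CPM. Grem1, a BMP antagonist, stood at 31.4, 7.11 and 13.999 CPM, against 127, 35.2 and 53.0 CPM. All 3 were lower in the selected cells in every library. Fzd2, a Wnt receptor, Sparc, a matrix protein, Gja1, which encodes connexin 43, and Il1r2, a decoy receptor of interleukin 1, were lower too. So were Wfdc21, Lhx2 and Ndufa4l2. The 3' ends of S100a4 and Gja1 each match transcripts of 1 other gene. The other keratinocytes include the cells that the limit on bulge genes removed: in double-positive cells with 3 or more bulge genes, S100a4 stood at 1539, 1031 and 1309 CPM and Grem1 at 286, 147 and 204 CPM.

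**Figure D3:**
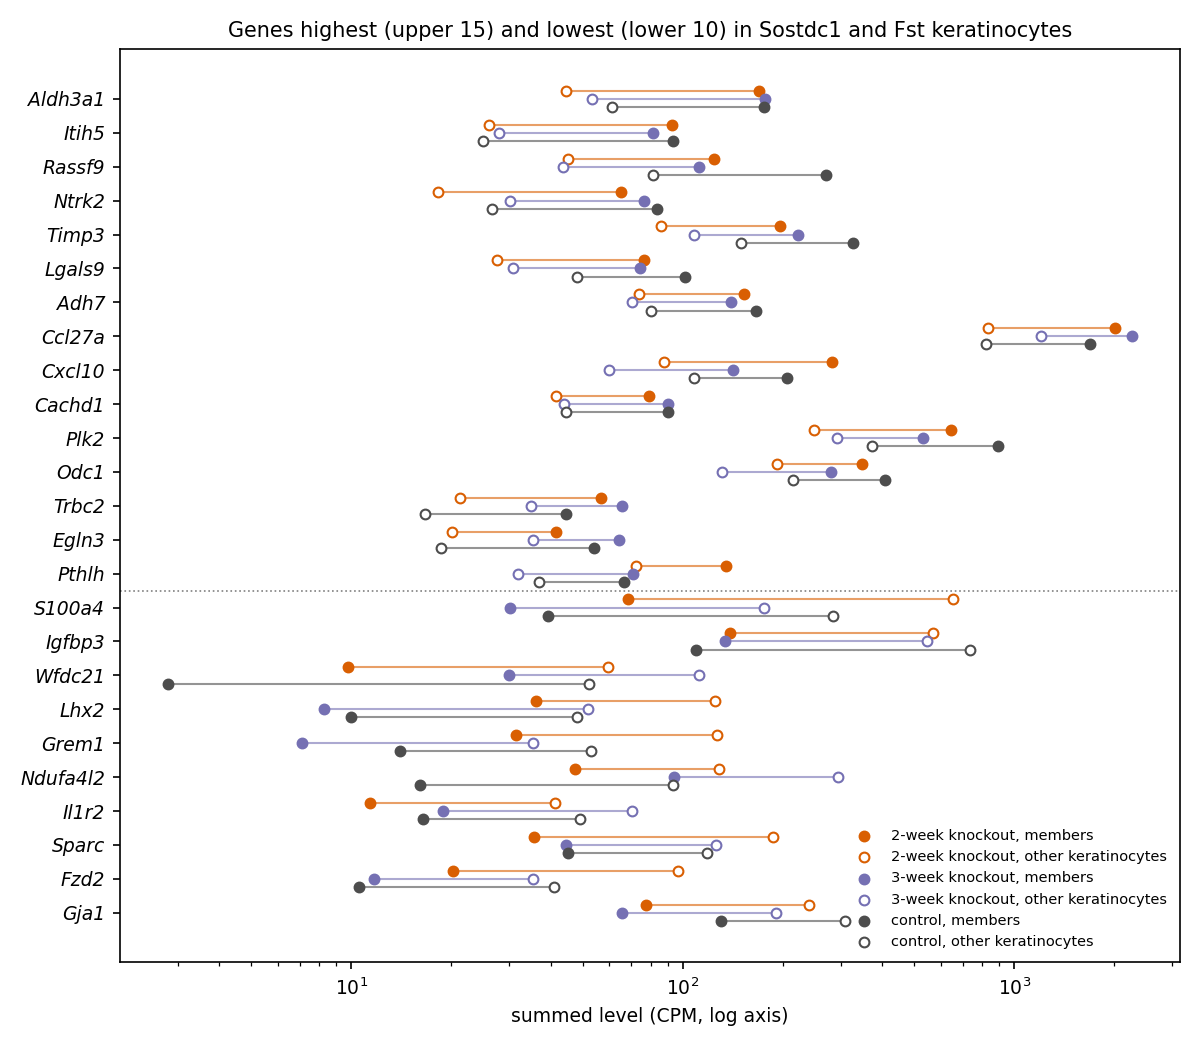
Summed levels (CPM, log axis) in the selected cells (filled) and in the other keratinocytes (open) of the 2-week knockout, the 3-week knockout and the control, for the 15 genes highest (above the dotted line) and the 10 lowest in the selected cells. Filled points lie to the right of open ones for all 15 and to the left for all 10 in each library.

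The 2 limits of the rule removed sets of cells that differed from each other. Cells with both genes and 4 or more upper follicle genes numbered 347, 375 and 240 in the 2-week knockout, the 3-week knockout and the control, and they resembled the selected cells in Aldh3a1 (153, 166 and 174 CPM). They had more Defb6, a beta-defensin (2652, 1552 and 791 CPM against 341, 337 and 146 CPM in the selected cells), and more Krt79, a keratin of the upper follicle (770, 692 and 492 CPM against 211, 250 and 127 CPM). Cells with both genes and 3 or more bulge genes numbered 982, 206 and 214 and had Aldh3a1 at 32.5, 53.9 and 41.2 CPM. Near the limit of the upper follicle genes Aldh3a1 differed little. It stood at 196, 204 and 186 CPM in selected cells with 3 of the 6, and at 193, 178 and 187 CPM in double-positive cells with exactly 4. Itih5 was lower past this limit, at 68.3, 48.2 and 61.4 CPM against 99.9, 77.3 and 97.9 CPM. Near the limit of the bulge genes the levels graded. Aldh3a1 stood at 98.5, 121 and 93.2 CPM in selected cells with 2 of the 6 bulge genes, and at 47.3, 54.9 and 44.0 CPM in double-positive cells with exactly 3. Near the limit on UMIs it stood at 137, 150 and 159 CPM in selected cells with exactly 2 UMIs of Sostdc1 or Fst, and at 116, 94.2 and 113 CPM in cells with 1 UMI of either and at least 2 of the other, which did not enter.

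Genes of the BMP, activin and Wnt pathways were read by role. Among ligands, Bmp2 stood at 154 CPM in the 2-week knockout, 120 CPM in the 3-week knockout and 186 CPM in the control, and Bmp4 and Bmp7 stood at under 30 CPM in each. Of the receptors, Bmpr1a (58.8, 57.9 and 61.3 CPM) and Bmpr2 (209, 168 and 212 CPM) had log2 ratios to the control between -0.33 and -0.02. Of 19 listed BMP and activin antagonists, which include Sostdc1 and Fst, 5 others had enough counts for the comparison with the other keratinocytes, of which Grem1 was at least 2-fold lower in the selected cells and none was higher. Chrd was at 0 in all 3 libraries, where 3 UMIs would be 0.496, 0.395 and 0.933 CPM in the 2-week knockout, the 3-week knockout and the control. Of 17 Wnt inhibitors 1 outside the rule had enough counts: Apcdd1, a membrane-bound inhibitor, stood at 68.6, 83.4 and 58.8 CPM in the selected cells, against 31.6, 47.0 and 35.6 CPM in the other keratinocytes. It was higher in the selected cells in each library, by at least 1.5-fold, as were 1.04% of all genes compared.

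Piezo1, the mechanically gated channel that the floxed alleles target, was counted at a low level. The selected cells held 151 UMIs in the 2-week knockout, 116 in the 3-week knockout and 119 in the control, or 24.96, 15.3 and 37.0 CPM. Its level relative to the control was 0.674 (0.527 to 0.865) at 2 weeks and, 3 weeks after induction, 0.412 (0.316 to 0.537). Within cluster 2 they were 0.757 and 0.414, and within cluster 6 they were 0.515 and 0.562, from 9 UMIs in the control. In the other keratinocytes Piezo1 stood at 29.6, 15.5 and 37.0 CPM. Which exons are floxed is not stated in the labels. Since 3' tags outside them would still be read from a deleted allele, these values check no label.

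Between the knockouts and the control, 37 of 2790 genes (1.33%) exceeded the control 2-fold or more in the 2-week knockout, and 31 (1.11%) fell short of it by as much. In the 3-week knockout these numbers were 39 of 2830 genes (1.38%) and 69 (2.44%). At 1.5-fold, 4.09% of genes were higher and 6.45% lower at 2 weeks, and 4.56% were higher and 12.9% lower at 3 weeks. The 2 comparisons share the control library. The median log2 ratio over all genes compared was -0.09 at 2 weeks and -0.13 at 3 weeks, with 5 CPM added to both sides as in all log2 ratios here.

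Adhesion, interferon-linked and wound-linked genes were among those lower in both knockouts with their counts spread over many cells. Itga2, the collagen-binding integrin chain alpha 2, stood at 64.8 CPM in the 2-week knockout, 42.5 CPM in the 3-week knockout and 208 CPM in the control, 3.22-fold (2.84 to 3.65) and 4.90-fold (4.29 to 5.62) lower than in the control. It was seen in 28.6%, 29.9% and 47.5% of the selected cells. Itgb6, a chain of the integrin that activates latent TGF-beta, stood at 33.7, 34.0 and 105 CPM. Both were lower in each knockout library, and both were also lower in the other keratinocytes (log2 ratios of -1.27 and -1.95 for Itga2 and of -1.03 and -1.17 for Itgb6 at 2 and 3 weeks). Within cluster 6 at 3 weeks the log2 ratio of Itga2 was -0.37 and that of Itgb6 was 0.14. Of the integrin and basement membrane genes, 3 of 13 compared were at least 2-fold lower at 2 weeks (Itga2, Itgb6 and the laminin chain Lama3) and 4 of 14 at 3 weeks (these and Itgb1), and none was higher. The median log2 ratio of the list was -0.44 at 2 weeks and -0.38 at 3 weeks. Of all genes compared, 1.11% were at least 2-fold lower at 2 weeks and 2.44% at 3 weeks. Integrins that anchor hemidesmosomes differed less: Itga6 had log2 ratios of -0.42 and -0.29, and Itgb4 stood at 124, 153 and 154 CPM.

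Ifi202b, an interferon-inducible gene of the p200 family, stood at 908 CPM in the 2-week knockout, 716 CPM in the 3-week knockout and 2781 CPM in the control, 3.06-fold (2.96 to 3.17) and 3.89-fold (3.76 to 4.02) lower. Ifi27l2a stood at 312, 149 and 639 CPM. Both were lower in each knockout within clusters 2 and 6 and in the other keratinocytes. Among the interferon response genes, Ifi202b, Ifi27l2a and Bst2 were at least 2-fold lower at both times, and Irf1, an interferon-inducible transcription factor, was higher at 2 weeks. Irf1 stood at 439, 251 and 162 CPM in the 2-week knockout, the 3-week knockout and the control.

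Phlda1, a pleckstrin-homology protein known from follicle stem cells, stood at 464, 305 and 1155 CPM in the 2-week knockout, the 3-week knockout and the control. It was 2.49-fold (2.37 to 2.62) and 3.79-fold (3.60 to 3.99) lower, with log2 ratios between -1.04 and -1.87 in clusters 2 and 6 at the 2 times. Thbs1, the matricellular protein thrombospondin 1, stood at 627, 882 and 1729 CPM, and Serpinb2, an inhibitor of plasminogen activators, at 1363, 1338 and 3090 CPM. All 3 were lower in both knockouts. Within cluster 6 the log2 ratio of Thbs1 was -0.25 at both times. At 2 weeks 6 of 13 cytokines, chemokines and wound genes compared were at least 2-fold lower, against 1.11% of all genes compared. At 3 weeks 7 of 14 were, against 2.44% of all genes compared. None of the list was at least 2-fold higher at either time, and its median at 2 weeks was -0.87. Among those 2-fold lower at both times were Phlda1, Serpinb2, F3, which encodes tissue factor, and Gadd45a, a stress-response gene, whose log2 ratio in cluster 6 was 0.53 at 2 weeks. Rap2b, a small GTPase, Cald1, an actin-binding protein, and Ets1, a transcription factor, were at least 2-fold lower at both times too, and Phldb2, a protein at the cell's basal adhesions, stood at 38.2, 38.4 and 110 CPM. Epgn, an EGF-family ligand, was lower at 2 weeks (202 CPM against 517 CPM in the control) and near the control at 3 weeks (479 CPM).

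Id1, Hes1 and several immediate early genes were higher in the knockouts with their counts spread over many cells. Id1 stood at 519 CPM in the 2-week knockout, 240 CPM in the 3-week knockout and 112 CPM in the control, ratios of 4.62 (4.14 to 5.17) and 2.13 (1.91 to 2.40). It was seen in 66.4%, 61.2% and 40.6% of the selected cells. Within cluster 2 its log2 ratios were 1.30 and 1.06, and within cluster 6 they were 1.53 and 0.45, smaller than over all selected cells at 2 weeks (2.16). Id2 stood at 241, 116 and 119 CPM and Id3 at 841, 485 and 420 CPM. Id1, Id2 and Id3, targets of BMP signalling, were thus highest in the 2-week knockout. Id1 alone of the 4 BMP targets compared was at least 2-fold higher at each time, against 1.33% and 1.38% of all genes compared. At 1.5-fold, 3 of the 4 were higher and 0 lower at 2 weeks, and 1 was higher and 1 lower at 3 weeks. Among all genes compared, 4.09% were 1.5-fold higher and 6.45% lower at 2 weeks, and 4.56% and 12.9% at 3 weeks. The median log2 ratio of the list was 0.99 at 2 weeks and 0.09 at 3 weeks. In the other keratinocytes Id1 stood at 827, 359 and 281 CPM, higher in the 2-week knockout as well.

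Hes1, a transcriptional repressor downstream of Notch, stood at 225 CPM in the 2-week knockout, 137 CPM in the 3-week knockout and 55.4 CPM in the control, ratios of 4.07 (3.48 to 4.78) and 2.48 (2.11 to 2.92). Its log2 ratios were 1.48 and 1.05 in cluster 2, 1.89 and 0.99 in cluster 6 and 1.93 and 1.34 in the other keratinocytes. The receptor Notch1 (178, 201 and 171 CPM) and the ligand Jag1 (119, 99.1 and 111 CPM) had log2 ratios between -0.16 and 0.22. Of 5 Notch pathway genes compared, Hes1 alone was at least 2-fold higher at each time, and the ligand Dll1 was at least 2-fold lower at 3 weeks. Among all genes compared, 1.33% and 1.38% were at least 2-fold higher at 2 and 3 weeks, and 2.44% lower at 3 weeks.

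Fos, an immediate early transcription factor, stood at 5719 CPM in the 2-week knockout, 4235 CPM in the 3-week knockout and 1780 CPM in the control, ratios of 3.21 (3.12 to 3.30) and 2.38 (2.31 to 2.45). Its log2 ratios were 2.56 and 2.05 in cluster 2, against 0.88 and 0.26 in cluster 6. Of 20 immediate early genes, 5 were at least 2-fold higher at 2 weeks (Fos, Fosb, Atf3, Zfp36 and Socs3) and 3 at 3 weeks (Fos, Atf3 and Btg2), and none was 2-fold lower. The list's medians were 0.56 and 0.47. Among all genes compared, 1.33% and 1.38% were at least 2-fold higher at 2 and 3 weeks. Klf4, Klf6 and Maff had log2 ratios between -0.20 and 0.16. Some of these genes were also higher in the immune cells of the knockout libraries: Fos stood there at 2450, 2220 and 1208 CPM and Atf3 at 1209, 1188 and 509 CPM in the 2-week knockout, the 3-week knockout and the control. Socs3 was not (134, 125 and 146 CPM). The part of these library-wide differences in the result was not tested.

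**Figure D4:**
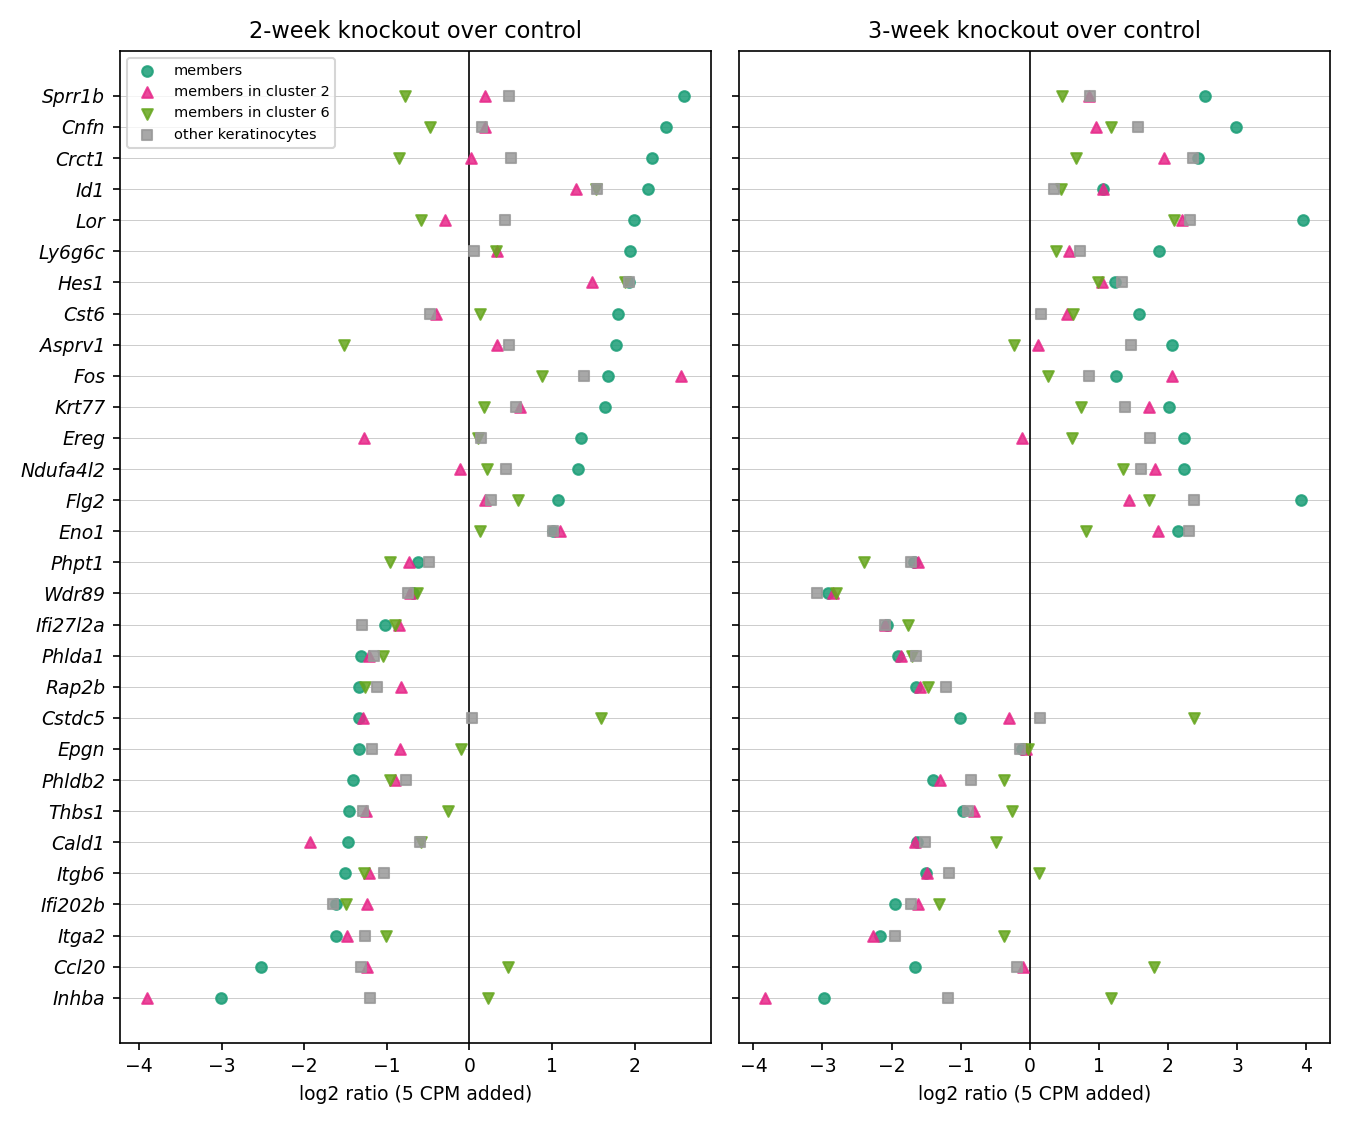
Log2 ratio of the 2-week knockout (left) and the 3-week knockout (right) over the control, with 5 CPM added, for each gene among the 10 highest or lowest at either time, in all selected cells (circles), in those of cluster 2 (up triangles) and of cluster 6 (down triangles) and in the other keratinocytes (squares). For Hes1, Ifi202b and Phlda1 all 4 symbols lie on 1 side of 0 in both panels, while for Lor, Cst6 and Inhba at 2 weeks they lie on both sides of it.

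Inhba, which encodes the activin subunit that follistatin binds, had the lowest ratio to control of the named genes at both times, and few cells carried it. It stood at 3.64 CPM (22 UMIs) in the 2-week knockout, 3.82 CPM (29 UMIs) in the 3-week knockout and 64.7 CPM (208 UMIs) in the control. The ratios were 0.0562 (0.0345 to 0.0874) and 0.0590 (0.0385 to 0.0873). It was seen in 1.77%, 2.59% and 8.05% of the selected cells, and 1 control cell held 33.7% of the control's UMIs. In cluster 2 it stood at 4.72, 5.29 and 141 CPM, and in cluster 6 at 0.833, 6.32 and 0 CPM, so the higher control level was seen in cluster 2 and not in cluster 6. In the other keratinocytes Inhba stood at 4.31, 4.48 and 16.5 CPM. Ccl20, a chemokine of wounded epidermis, was also lower over all selected cells (39.2, 75.5 and 249 CPM), with 37.9% of the control's UMIs in 1 cell and log2 ratios of 0.47 and 1.80 in cluster 6. Inhba is also on the list of dermal papilla markers, of which Corin, Sox2 and Acan were at 0 in the selected cells of all 3 libraries. Cstdc5, a stefin-like gene whose 3' end matches transcripts of 2 other genes, was lower at both times with 35.0% of the control's UMIs in 1 cell.

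Genes of the Wnt pathway differed by less than 2-fold at 2 weeks among those compared. Wnt4 stood at 132 CPM in the 2-week knockout, 134 CPM in the 3-week knockout and 89.0 CPM in the control, and Wnt3 at 37.4, 52.4 and 29.2 CPM. Axin2, a target of canonical Wnt signalling, stood at 36.4, 29.5 and 16.5 CPM, ratios of 2.21 (1.63 to 3.04) and 1.79 (1.32 to 2.46), from 53 UMIs in the control. Axin2 was under the 50 CPM minimum and outside the counts. Of 3 Wnt targets compared, Ccnd1, which encodes cyclin D1, was at least 2-fold higher at 3 weeks and none at 2 weeks. The shares of all genes compared were 1.38% at 3 weeks and 1.33% at 2 weeks. The median log2 ratios were 0.56 and 0.33 for the targets and 0.13 and 0.56 for the ligands at 2 and 3 weeks.

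Most other genes ranked highest in the knockouts were genes of cornified or suprabasal cells, and 1 cell held a large share of the counts of many of them. In the 2-week knockout, 1 cell held at least 20% of the UMIs for 7 of the 10 highest genes, and in the 3-week knockout for 8 of 10. Loricrin, encoded by Lor, stood at 75.5 CPM in the 2-week knockout, 308 CPM in the 3-week knockout and 15.2 CPM in the control, with 48.6% and 64.2% of the knockout UMIs in 1 cell each. Flg2, which encodes filaggrin 2, had 76.4% of its UMIs in 1 cell at 3 weeks, and Sprr1b, a cornified envelope precursor, had 48.1% in 1 cell at 2 weeks. The deepest selected cell held 140206 UMIs in the 2-week knockout, 114662 in the 3-week knockout and 50887 in the control. Without cells over 30000 UMIs (9, 21 and 6 cells), 5 of the 10 highest genes at 2 weeks and 7 of 10 at 3 weeks stayed at least 2-fold higher, and all 10 of the lowest at each time stayed at least 2-fold lower. At 2 weeks Lor (log2 ratio 1.12) and Crct1 (1.37) kept this difference without the deep cells, while Sprr1b (0.19), Ly6g6c, Cst6, Asprv1 and Krt77 did not. At 3 weeks Lor (2.16), Sprr1b (1.52), Crct1 (1.38), Cnfn and Flg2 kept it, while Ereg, Asprv1 and Krt77 did not. Flg2 had 3 UMIs in the control.

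Of the suprabasal markers, 4 of 10 compared were at least 2-fold higher at 2 weeks, against 1.33% of all genes compared. At 3 weeks 6 of 11 were, against 1.38% of all genes compared. The medians of the suprabasal markers were 0.73 and 1.17, and none was lower. The sum of all 14 was 6026, 7078 and 4069 CPM in the 2-week knockout, the 3-week knockout and the control over all selected cells, and 2215, 1967 and 1860 CPM in cluster 2. In cluster 2 the libraries were thus close. At 3 weeks the same genes were high in immune cells too: Lor stood there at 11.4, 1360 and 18.3 CPM and Krt10, a suprabasal keratin, at 242, 3573 and 525 CPM in the 2-week knockout, the 3-week knockout and the control. Lor was seen in 60.5% of the selected cells of the 3-week knockout, at a level below that in its immune cells, whereas in the 2-week knockout its level was above that in immune cells. The part of free RNA in these levels was not tested. Ly6g6c, Crct1, Cnfn, Asprv1, Krt77 and Cst6, the last a cystatin of cornifying cells, were among the 10 highest genes at 1 or both times with at least 20% of their UMIs in 1 cell, as was Ereg, an EGF-family ligand, at 3 weeks (54.3%).

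**Figure D5:**
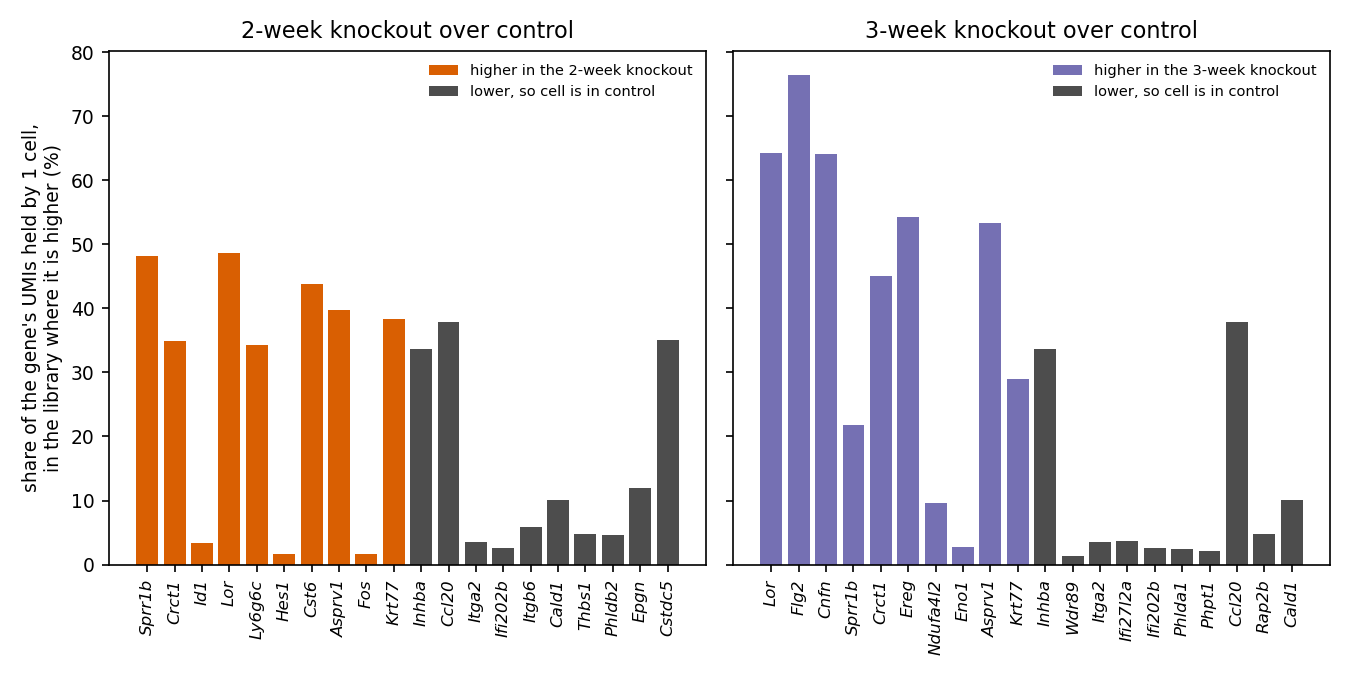
Share (percent) of a gene's UMIs held by the single cell with most of them, in the library where the gene was higher, for the 10 highest genes (coloured: knockout cell) and the 10 lowest genes (grey: control cell) at 2 weeks (left) and 3 weeks (right). Id1, Hes1 and Fos hold 3.38%, 1.61% and 1.61% in 1 cell at 2 weeks, against 48.6% for Lor.

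Wdr89, Eno1 and Phpt1 differed alike between libraries in the selected cells and in immune cells. Wdr89, a WD-repeat gene, stood at 496 CPM in the 2-week knockout, 101 CPM in the 3-week knockout and 798 CPM in the control in the selected cells. It stood at 450, 85.8 and 760 CPM in the other keratinocytes and at 366, 79.6 and 665 CPM in immune cells. Eno1, the glycolytic enzyme enolase 1, stood at 24.0, 58.3 and 9.33 CPM in the selected cells and at 32.7, 80.6 and 19.6 CPM in immune cells, and Phpt1, a protein histidine phosphatase, at 36.2, 14.9 and 58.5 CPM in the selected cells and at 29.4, 9.84 and 33.0 CPM in immune cells. All 3 kept 1 order of libraries in keratinocytes and immune cells. Their 3' ends match transcripts of 17, 5 and 1 other genes, and the part of such near-identical copies in these values was not tested. Ndufa4l2, a hypoxia-inducible mitochondrial gene, was higher at 3 weeks (94.0 CPM against 16.2 CPM in the control) and in the other keratinocytes (295 CPM against 93.3 CPM). Of 9 glycolysis and hypoxia genes compared at 3 weeks, Ndufa4l2 and Eno1 were at least 2-fold higher and Ndrg1 was lower. Among all genes compared at 3 weeks, 1.38% were at least 2-fold higher and 2.44% lower.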

How the data were processed

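The deposited matrices hold raw counts of UMIs per gene and cell barcode over 32285 genes, made by the authors with Cell Ranger 6.1.2 and the mm10 genome per the submitters' processing notes and the file headers; no annotation release or intron setting is stated there. Libraries were 10x 3' v3.1, per the labels. The cells and gene lists were chosen with earlier results of these data known.

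The rule was applied to every barcode (11144, 11186 and 5621 in the 2-week knockout, the 3-week knockout and the control, of which 9869, 9993 and 5022 passed the limits on genes and mitochondrial counts). UMIs of the selected cells were summed per library and scaled to 1000000 (CPM). With 1 library per group there is no test: genes were counted at 2-fold after adding 5 CPM, among those with at least 50 UMIs and 50 CPM on either side. Ratios carry exact conditional, shares exact Clopper-Pearson 95% intervals; 0 counts were bounded by 3 UMIs. Named genes were the 15 highest and 10 lowest against other keratinocytes by the weakest library, and the 10 highest and lowest at least 2-fold for each knockout, without ribosomal, mitochondrial, haemoglobin, Xist, Y-linked and unnamed genes, together with genes of 42 lists. Of the list symbols 3 (Ctgf, Krt85 and Cyr61) were not found. A result for 1 gene is not reported here.

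Keratinocytes were clustered without the genes of the rule (2000 variable genes, gene means removed within each library, 30 components, 15 neighbours, Jaccard weights, leidenalg 0.10.2, resolution 1, 17 clusters). Doublets were called with Scrublet in scanpy 1.11.5 (312, 443 and 136 cells) and were left out in an alternative only. The last 300 bases of each transcript of the named genes were aligned to all GENCODE M21 transcripts (at least 95% identity over 100 bases). The counting of 2-fold genes was tried on simulated counts with known changes. Those counts held counting error only, without differences between cells, clusters or animals, so the trial does not bear on these. Other alternatives are in the closing section; those by cluster and without cells over 30000 UMIs were chosen after seeing the data.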

Additional observations from a re-analysis of the deposited data

Results flagged for a closer look

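Cells outside the keratinocyte rule also carried both genes. Of cells with under 0.3% of their UMIs in Krt5, Krt14 and Krt15 and no Ptprc, 59 of 1572 (3.75%, 2.87 to 4.81) in the 2-week knockout, 62 of 3006 (2.06%, 1.58 to 2.64) in the 3-week knockout and 37 of 1580 (2.34%, 1.65 to 3.21) in the control had at least 2 UMIs of Sostdc1 and of Fst. They were looked at because no comparison above uses them. The share in immune cells was 1.68% (0.204 to 5.94), 0.680% (0.141 to 1.98) and 0 of 310, the last with an upper limit of 1.18%. The interval of the immune cells covers the value in the 2-week knockout and lies below it in the 3-week knockout and the control. These cells had Krt17 at 5567, 4383 and 3856 CPM and Krt79 at 2949, 2136 and 1224 CPM in the 2-week knockout, the 3-week knockout and the control, against 1877, 1492 and 1481 CPM and 211, 250 and 127 CPM in the selected cells. The keratins of the rule were counted in them below its limit: Krt5 at 440, 398 and 384 CPM, Krt14 at 745, 539 and 413 CPM and Krt15 at 619, 600 and 675 CPM. Vim, of mesenchymal cells, stood at 123, 351 and 218 CPM in them, against 11.9, 36.7 and 26.8 CPM in the selected cells.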

How the results depend on the processing

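Shares of keratinocytes moved with the number of UMIs asked for. They were 12.7%, 16.1% and 14.9% at 1 UMI of each gene in the 2-week knockout, the 3-week knockout and the control. In the same order they were 5.20%, 7.87% and 7.54% at 3 UMIs. With cells thinned to 5000 UMIs and shallower cells left out they were 7.06%, 9.60% and 8.78%. The 2-week share was the lowest each time. Against other keratinocytes, the counts of 6 genes higher and 17 lower of 2685 became 3 and 9 with 20 CPM added. With a minimum of 10 UMIs and none on CPM they became 16 and 39 of 14333 genes. The lower count became 8 at 1 UMI and 27 thinned. At 2 weeks, the counts of 37 higher and 31 lower of 2790 genes became 108 and 67 of 11075 with these lower minimums. The higher count became 56 of 3542 genes when scaled without ribosomal and mitochondrial genes. It became 19 in cluster 2 and 20 with clusters weighed equally, and the lower count became 50 at 3 UMIs. At 3 weeks, 39 higher and 69 lower of 2830 genes became 106 and 133 of 11204 with the lower minimums. The higher count became 22 both for the mean of per-cell CPM and with clusters weighed equally. The lower count became 43 with 20 CPM added. Piezo1 within cluster 6 had ratios of 0.515 and 0.562. The cause of these moves was not tested. Log2 ratios that turned round at 2 weeks were those of Sprr1b (-0.78 in cluster 6, -0.56 with clusters weighed equally), Crct1 (-0.22 thinned, -0.85 in cluster 6), Lor (-0.31 thinned, -0.30 in cluster 2, -0.58 in cluster 6, -0.63 with clusters weighed equally), Cst6 (-0.40 in cluster 2), Asprv1 (-0.019 thinned, -1.52 in cluster 6), Inhba (0.22), Ccl20 (0.47) and Cstdc5 (1.60), the last 3 in cluster 6. At 3 weeks they were those of Ereg (-0.11 in cluster 2), Asprv1 (-0.23), Inhba (1.18) and Ccl20 (1.80), the last 3 in cluster 6. Leaving out doublets turned no named gene round and took none past 2-fold. No paired analysis was possible because there is 1 library per group, and no replicate could be left out. Depth limits genes such as Piezo1, Axin2 and Inhba, which rest on few UMIs.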

Other observations

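Cells left out for a count of Col1a1, a fibroblast collagen, often carried both genes: 39.1% (34.5 to 43.9) of 432 such keratinocytes in the 2-week knockout, 23.0% (18.9 to 27.5) of 387 in the 3-week knockout and 23.9% (19.98 to 28.1) of 444 in the control had at least 2 UMIs of Sostdc1 and of Fst, before the limits on bulge and upper follicle genes. Gas1, a cell-surface protein that modulates hedgehog signalling, stood at 110 CPM in the selected cells of the 2-week knockout, 73.6 CPM in the 3-week knockout and 37.6 CPM in the control. Of 4 upper follicle genes compared, Cst6 and Defb6 were at least 2-fold higher at both times, and Plet1, a surface marker of the follicle's junctional zone, was at least 2-fold lower (log2 ratios of -1.03 and -1.28). Among all genes compared, 1.33% and 1.38% were at least 2-fold higher and 1.11% and 2.44% lower at 2 and 3 weeks. Krt79 had log2 ratios of 0.71 and 0.96, and the medians of the 4 were 0.96 and 1.07. In the 2-week knockout 1 cell held 43.8% of the Cst6 counts, and in cluster 2 the log2 ratio of Cst6 there was -0.40.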
